A study of Rattus norvegicus with 2 samples.

Results

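Genes that mark brain macrophages were compared in the hypothalamus of male and female rats, 10 in all: 7 genes of parenchymal microglia (Aif1, Csf1r, Ptprc, Cd68, Trem2, C1qa and Tyrobp) and 3 genes of the macrophages at the borders of the brain (Cd163, Clec10a and Mrc1). They were chosen by gene symbol among the 26334 gene names on the arrays. Clec10a was 1.59-fold higher in the female pool, by 0.66 ± 0.12 log2 (SD, 10 spots), and all 10 spots of its probe lay higher there. Cd68 was 1.505-fold higher on 1 spot, and Cd163 1.24-fold higher on 1 spot. The other microglia genes differed by less than 10%, except Ptprc, whose 2 probes gave unlike values. Mrc1 was too dim to measure in both pools.

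The samples were whole hypothalamus of adult Wistar Kyoto (WKY) rats, a normotensive inbred strain, aged 9 weeks and untreated, with free access to food and water. The male group was 1 pool of 5 males and the female group 1 pool of 5 females, each holding 100 ng of RNA per rat, of which 150 ng was amplified and labelled (Cy3 dye). An Agilent 1-colour array was used for each pool, 1 per sex, so there was no replicate, no test was possible and the spread between rats was not measured. By its title, the study looked for sex differences in brain centres of cardiovascular control.

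Microglia are the resident macrophages of brain tissue, seeded in the embryo from the yolk sac and kept alive by signals through the Csf1 receptor. Border macrophages line blood vessels, the leptomeninges and the choroid plexus, and take up material from blood and cerebrospinal fluid with scavenger and lectin receptors such as Cd163, Mrc1 and Clec10a. Both kinds share many genes, among them Ptprc, Csf1r, Aif1, Cd68 and the C1q genes, so the microglia genes here are not exclusive to microglia. In bulk tissue, fewer cells of a type and less RNA per cell cannot be told apart.

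The level of a spot is log2 of its processed intensity minus log2 of the 75th percentile of its array, so a level of 0 is the 75th percentile. Every difference is the female minus the male level, and where 2 intensities or levels are given the male pool comes first. That percentile was an intensity of 3769 for males and 2943 for females, so the female array was dimmer before scaling. A gene was measured where over 50% of the spots of a probe were well above background on both arrays, as the scanner software flagged them, and the value of a gene is the mean of its measured probes. An error after ± is the SD over the spots of 1 probe. A technical SD comes from probes on 5 or more spots in 8 bins of level, scaled to the number of spots. The lowest bin held every level below -4.03, so dim genes at unlike levels share its spot SD of 0.21. Both leave out the rats, the labelling and the hybridisation.

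Of 42877 non-control spots, 84.9% (male) and 84.2% (female) were well above background, 0 were saturated, and 20664 genes were measured. Their median difference was 0.00012 log2 and their central 95% ran from -0.35 to 0.48. Both arrays lay on the same slide. On it, 3 bands of rows (80 to 179, 400 to 459 and 520 to 532) held 32.6% of the non-control spots. The bands are the windows of 20 rows where over 2.5% of repeated spots departed from their probe's median by over 4 robust SDs. By that choice the share was higher inside, 5.22% against 0.628% elsewhere, so the contrast describes the bands and does not test them. Each result from a spot in a band is marked as such. All 12 hypothalamic neuropeptide genes listed were measured, with a median difference of 0.0027 log2, or 0.093 over the 8 with a spot outside the bands. Single genes ran from -0.36 to 1.22 log2, and 1 was at least 1.5-fold higher in females, against 1.56% of all genes. The median therefore does not show that each of these genes was equal in the 2 pools. Of 9 Y-linked genes listed, Sry and Ddx3y were found by symbol, each on 1 spot, with differences of 0.012 and 0.24 log2. The files place the Ddx3y probe on an autosome, so these spots did not check the sex labels.

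The 10 genes had 13 probes on 31 spots: 2 probes on 10 spots each and 11 on 1 spot, 4 of these inside a band. Probes are 60 bases long and match the messenger RNA, and positions are those of the files in the rat build rn4. The sequences below are those of the border macrophage probes, which carry the largest difference and the dim values around it, and of the microglia probes that stood apart or disagreed. Each is read 5′ to 3′ from the first base, whole for Ptprc 2, Csf1r and Mrc1 and the first 30 bases for the others.

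Clec10a: ctttttgtcaaaaaatttaagtcaaggaga
Cd163: tcaagttcagtaccaagagatggattcgaa
Mrc1: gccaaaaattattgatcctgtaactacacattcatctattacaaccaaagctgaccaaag
Cd68: gttatctcccttctctgtctttaagaacaa
Ptprc 1: aaactcaagggagtctatttttgtatccac
Ptprc 2: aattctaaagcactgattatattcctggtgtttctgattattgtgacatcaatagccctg
Csf1r 1: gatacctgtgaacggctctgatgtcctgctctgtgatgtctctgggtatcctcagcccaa
Csf1r 2: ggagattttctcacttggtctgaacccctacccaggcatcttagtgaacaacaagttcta

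Clec10a is at chr10:57002796-57002855 on the plus strand, Cd163 at chr4:160423704-160423763 on the plus strand and Cd68 at chr10:56481726-56481785 on the minus strand. The Ptprc probes are at chr13:51246523-51246582 and chr13:51274302-51274361 on the minus strand. The Csf1r probes, on the plus strand, are at chr18:57093036-57093095 and chr18:57105231-57105932. The Mrc1 probe is at chr17:88489156-88491763 on the plus strand. The second Csf1r probe covers 702 bases of the genome and the Mrc1 probe 2608, more than the 60 bases of a probe, so both cross an intron. The probe sequences were rich in A and T for Clec10a, Cd68, Mrc1 and Ptprc 2, each with 35.0% G and C, against a median of 45% over all 30367 probes.

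**Figure D1:**
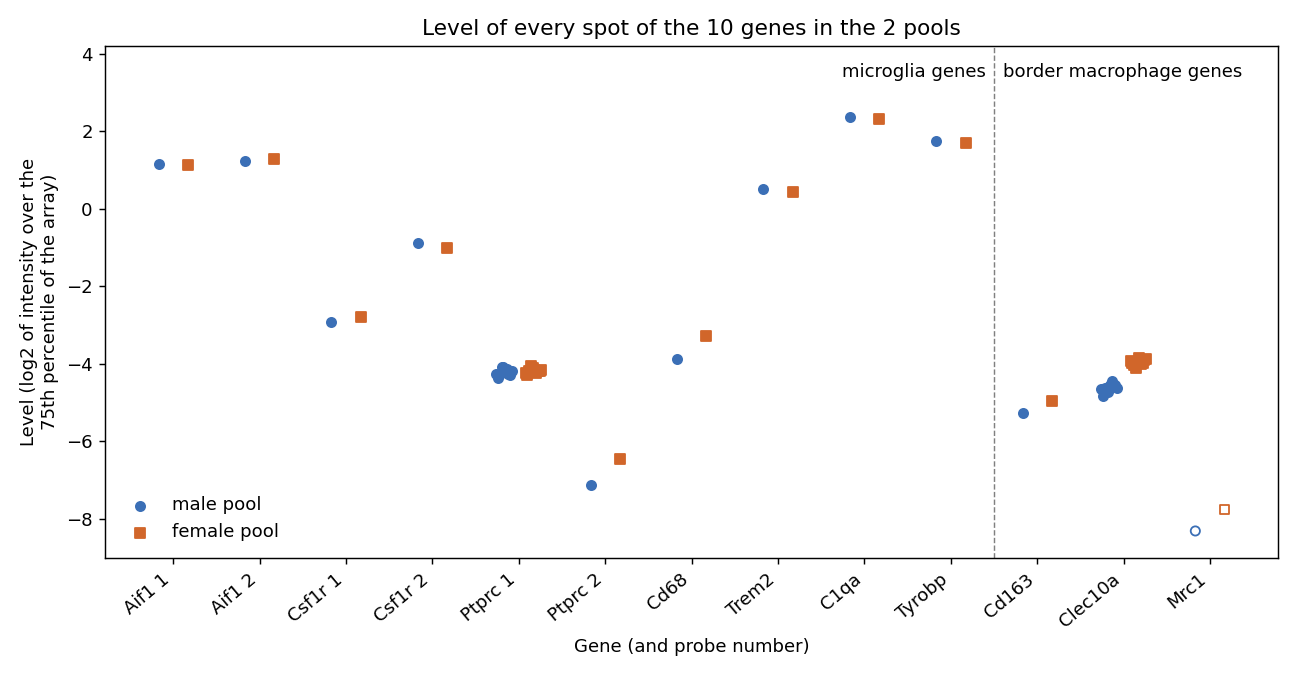
Level of each of the 31 spots (log2 of intensity over the 75th percentile of the array) in the male pool (blue circles) and the female pool (orange squares), by gene and probe number; open symbols mark Mrc1, which was not well above background. The pairs of Clec10a, Cd68, Cd163, Ptprc 2 and the unmeasured Mrc1 step up from male to female, while those of the other probes are within 0.12 log2 of each other on average; heights of different probes are not comparable, since probes differ in binding.

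Among the border macrophage genes, Clec10a was the best measured. It encodes a C-type lectin of macrophages and dendritic cells that binds galactose-type sugars. Its 10 spots had intensities from 131 to 174 on the male array (median 154) and from 170 to 204 on the female array (median 189), although the latter was the dimmer array. Before scaling the 2 ranges just touched, the highest male spot lying above the lowest female spot. On the level scale the male spots lay between -4.84 and -4.44 and the female spots between -4.12 and -3.85, with no overlap.

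The mean level of Clec10a was -4.63 ± 0.11 for males and -3.96 ± 0.077 for females (SD, 10 spots each). The difference at a single spot ran from 0.43 to 0.87 log2. The 3 spots inside a band gave 0.69 and the 7 outside 0.65, so the bands did not carry the value. The difference of 0.66 was 10.04 times its technical SD of 0.066. Of all measured genes, 1.16% were at least as far up in the female pool. Dim genes scattered more: 2.30% of genes at levels from -5 to -4 were up by 1.5-fold or more, and their median was 0.027 log2. Among the 1278 probes measured on 8 or more spots, 6.26% had every female spot above every male spot and 0.704% were higher in females by 1.5-fold or more. Those percentages are the background for this gene, since the spots of 1 array are not replicates of a sex.

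Cd163, the scavenger receptor for haemoglobin bound to haptoglobin, was dim. Its 1 spot, outside the bands, had intensities of 97.3 and 94.1, or levels of -5.28 and -4.97. The scaled difference was 0.31 log2, 1.47 times its technical SD of 0.21, so it was not far beyond the scatter of spots in the lowest bin of level. A share of 6.69% of all genes was as far up.

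Mrc1, the mannose receptor Cd206, gave intensities of 11.9 and 13.6 on 1 spot. Neither was well above background, where the dimmest spots that passed had intensities of 15.04 and 13.9. No fold is given for it. A probe that reads near background limits what this spot can show about Mrc1 and does not show that the RNA was missing. The median difference of the border macrophage genes, 0.49 log2, therefore rests on Clec10a and Cd163 alone, 2 of 3.

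**Figure D2:**
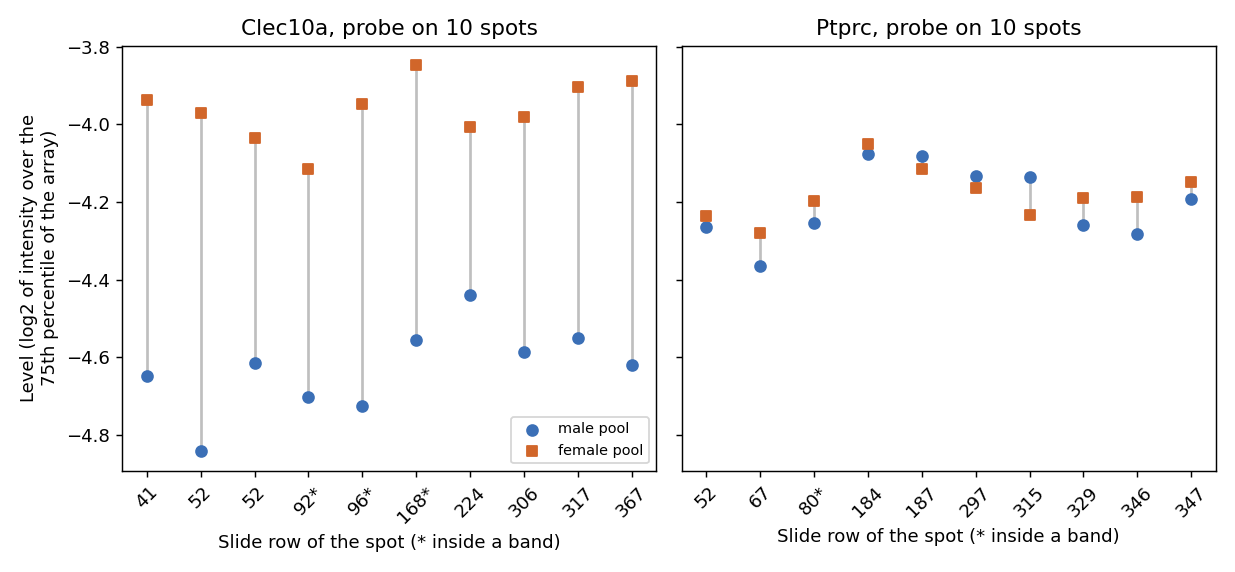
Level of each spot of the 2 probes present on 10 spots, Clec10a at left and Ptprc 1 at right, in the male pool (blue circles) and the female pool (orange squares), ordered by slide row; grey lines join the same spot position on the 2 arrays and an asterisk marks rows inside a band. All 10 Clec10a pairs go up by 0.43 to 0.87 log2, while the Ptprc pairs lie within 0.098 log2 of each other, 7 up and 3 down.

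The microglia genes as a group lay at the middle of all genes. Of 7 measured, 3 were higher and 4 lower in females, against 50% of all genes higher. Their median was -0.0016 log2, and 5 of 7 were within 10% of equal, as were 66.4% of all genes. Only Cd68 of the 7 reached 1.5-fold.

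The receptor that keeps microglia alive, Csf1r, had 2 probes that went opposite ways. Probe 1, outside the bands, had intensities of 499 and 422 and a difference of 0.12 log2. Probe 2, inside a band, had 2034 and 1464 and a difference of -0.12. Their mean was -0.0016 with a technical SD of 0.056, so the gene value is an average of 2 unlike readings. The probes start 12195 bases apart in the genome and 1314 apart in the transcript.

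Trem2 is the lipid-sensing receptor of microglia, and Tyrobp is the adaptor (DAP12) through which it signals. The Trem2 spot had intensities of 5402 and 3949, levels of 0.52 and 0.42 and a difference of -0.096 log2, with a technical SD of 0.064. The Tyrobp spot had 12654 and 9518, levels of 1.75 and 1.69 and a difference of -0.054, with a technical SD of 0.053. Receptor and adaptor were thus both slightly lower in the female pool, each by under 1.5 times its technical SD. Most genes at these levels were lower too. At levels from 0 to 1 and from 1 to 2, 39.6% and 35.5% of all genes were higher, with medians of -0.026 and -0.034.

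C1qa encodes a chain of C1q, which starts the classical complement cascade and in brain is made mainly by microglia. Its spot, inside a band, had intensities of 19567 and 14772, levels of 2.38 and 2.33 and a difference of -0.049 log2, within its technical SD of 0.056. Aif1 encodes the actin-binding protein Iba1, the usual stain for microglia. Its probes gave -0.030 outside a band and 0.052 inside one, with a mean of 0.011 and a technical SD of 0.037. Neither gene separated the pools.

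Ptprc encodes the phosphatase CD45, carried by white blood cells and at low density by microglia. Probe 1, on 10 spots, had intensities of 183 to 223 (median 202) and 151 to 178 (median 161). Once scaled, its levels overlapped, from -4.37 to -4.08 and from -4.28 to -4.05, and the difference was 0.024 ± 0.061 log2 (SD, 10 spots), with 7 spots higher and 3 lower. Probe 2, on 1 spot inside a band, gave 0.66 log2 from intensities of 26.9 and 33.3, with a technical SD of 0.21. These intensities are close to background, where spots as bright as 23.9 and 21.5 had failed the flag.

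The mean of the Ptprc probes, 0.34 log2 or 1.27-fold, is thus the average of a well-measured value near 0 and 1 dim spot. Without the bands the gene gave 0.021. The probes start 27779 bases apart in the genome and 2885 apart in the transcript.

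Cd68 encodes a lysosomal membrane glycoprotein of phagocytes, used as a sign of phagocytic activity. Its 1 spot, outside the bands and at the edge column 1 of the slide, had intensities of 257 and 303, or levels of -3.87 and -3.28. Like Clec10a, it was brighter on the female array before any scaling. The difference of 0.59 log2 was 6.46 times its technical SD of 0.091, and 1.54% of all genes were as far up. Among genes on 1 spot 1.75% were at least 1.5-fold higher, and 1.72% among genes within 1 log2 of its level. No second probe was there to check it, and at 1.505-fold it stood at the threshold and was under it with quantile, spike-in or median scaling (0.54, 0.52 and 0.55 log2).

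Clec10a and Cd68 were the 2 of 9 measured genes at least 1.5-fold apart, both higher in the female pool. Over all measured genes 1.56% were that far up, 0.842% that far down and 2.4% either way. The medians of the border and microglia genes differed by 0.49 log2, which carries no test.

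**Figure D3:**
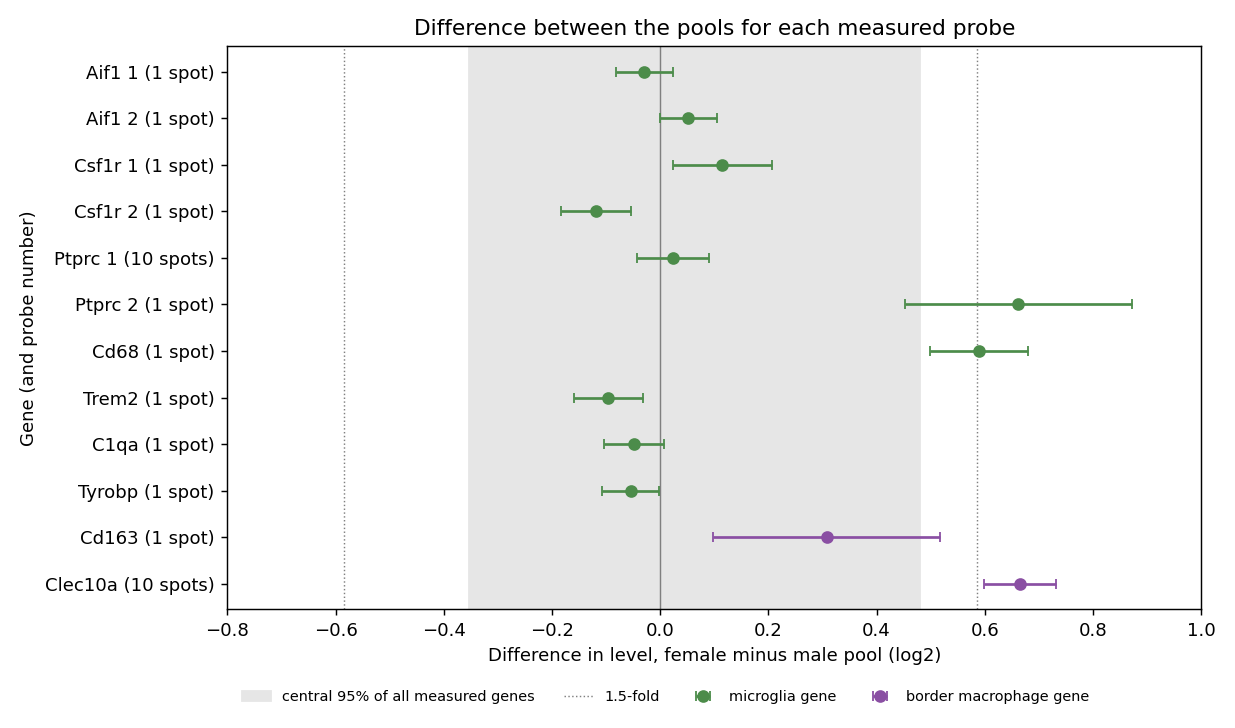
Difference in level, female minus male (log2), of each of the 12 measured probes, with microglia genes in green and border macrophage genes in purple; bars are 1 technical SD, grey shading is the central 95% of all measured genes (-0.35 to 0.48) and dotted lines mark 1.5-fold. Clec10a, Cd68 and Ptprc 2 lie right of the shading, Cd163 inside it, and the other probes close to 0.

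Wider gene lists were set beside these 10 genes, each given by its counts and median. Of 21 homeostatic microglia genes measured, 7 were higher and 14 lower in females, and the median was -0.026 log2. The fractalkine receptor gene Cx3cr1 differed by 0.46 on 1 spot, the integrin gene Itgam by -0.32, and the sialic acid receptor gene Cd33 by -0.27 ± 0.054 (SD, 10 spots). Irf8, a transcription factor of microglia, differed by -0.23 (band). None reached 1.5-fold, and Cx3cr1 stood on the other side from most of its list. The technical SD was 0.053 for Cx3cr1, 0.022 for Cd33 and 0.21 each for Itgam and Irf8. The differences of Cx3cr1 and Cd33 were thus many times their technical SD, so a large multiple was not particular to Clec10a and Cd68.

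Of 18 further border macrophage genes measured, 13 were higher and 5 lower in females, and the median was 0.083 log2. The list was dim, with a median level of -4.50 and -4.27. Of all genes at levels from -5 to -4, 56.8% were higher, with a median of 0.027, and 2.30% were up by 1.5-fold or more. The scavenger receptor genes Marco and Colec12 were 1.79 (band) and 0.65 log2 higher, the transcription factor gene Maf 0.45 and the transglutaminase gene F13a1 0.45 (band). Marco and Colec12 alone reached 1.5-fold, each on 1 dim spot with a technical SD of 0.21. The Marco spot had intensities of 26.6 and 71.8, and the Colec12 spot 152 and 187. The male Marco value is close to background, where male spots as bright as 23.9 had failed the flag. Of the list, 9 genes stood on band spots only, and the 9 others gave 7 higher and a median of 0.092. Colec12 and Maf are also made by cells other than macrophages. Msr1 and Timd4 were not measured.

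Genes around the receptors and complement differed little. Of 13 complement genes besides C1qa, 10 were higher and 3 lower, with a median of 0.085 log2 and the protease gene C1r at 0.24 ± 0.057 (SD, 10 spots). C3ar1, the receptor of the C3a fragment, differed by -0.26, the inhibitor gene Cd55 by 0.22 and C3 by -0.19 (band). Of 16 genes of Tyrobp and Fc receptor signalling, 7 were higher and 9 lower, with a median of -0.047. The exchange factor gene Vav1 differed by -0.35, the adaptor gene Hcst by 0.22, the kinase gene Fgr by -0.18 (band) and the adaptor gene Blnk by -0.14.

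The Csf1 receptor has 2 ligands, Csf1 and Il34, and both were measured. Csf1 was at -0.12 ± 0.044 (SD, 10 spots) and Il34 at 0.071 on 1 spot. Of 6 ligand and related cytokine genes 4 were higher and 2 lower, with a median of 0.059 log2, Csf2ra at 0.067 and Tgfb1 at 0.065 ± 0.072 (SD, 10 spots). No gene of these 3 lists reached 1.5-fold.

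Cd68 is a lysosomal gene, and most of the other lysosomal genes were slightly lower in females. Of 17 measured, 5 were higher and 12 lower, with a median of -0.080 log2. The median level of that list lay from 1 to 2 in both pools. Most genes at levels from 1 to 2 were lower too, with 35.5% higher and a median of -0.034. Some genes of the list lay outside those levels, so that share is a background for its median level only. The protease inhibitor gene Cst3 was at 0.18, the membrane protein gene Lamp2 at 0.17 and the protease gene Lgmn at -0.14 (band). Of 16 genes of activated microglia 8 were higher and 8 lower, with a median of -0.0079. The chemokine gene Ccl3 was at 0.38 ± 0.31 and the cytokine gene Il1b at -0.28 ± 0.13 (SD, 10 spots each), Apoe at 0.20 and Tnf at -0.18. In these 2 lists 0 genes reached 1.5-fold, near the share of 2.4% over all genes given their small number.

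**Figure D4:**
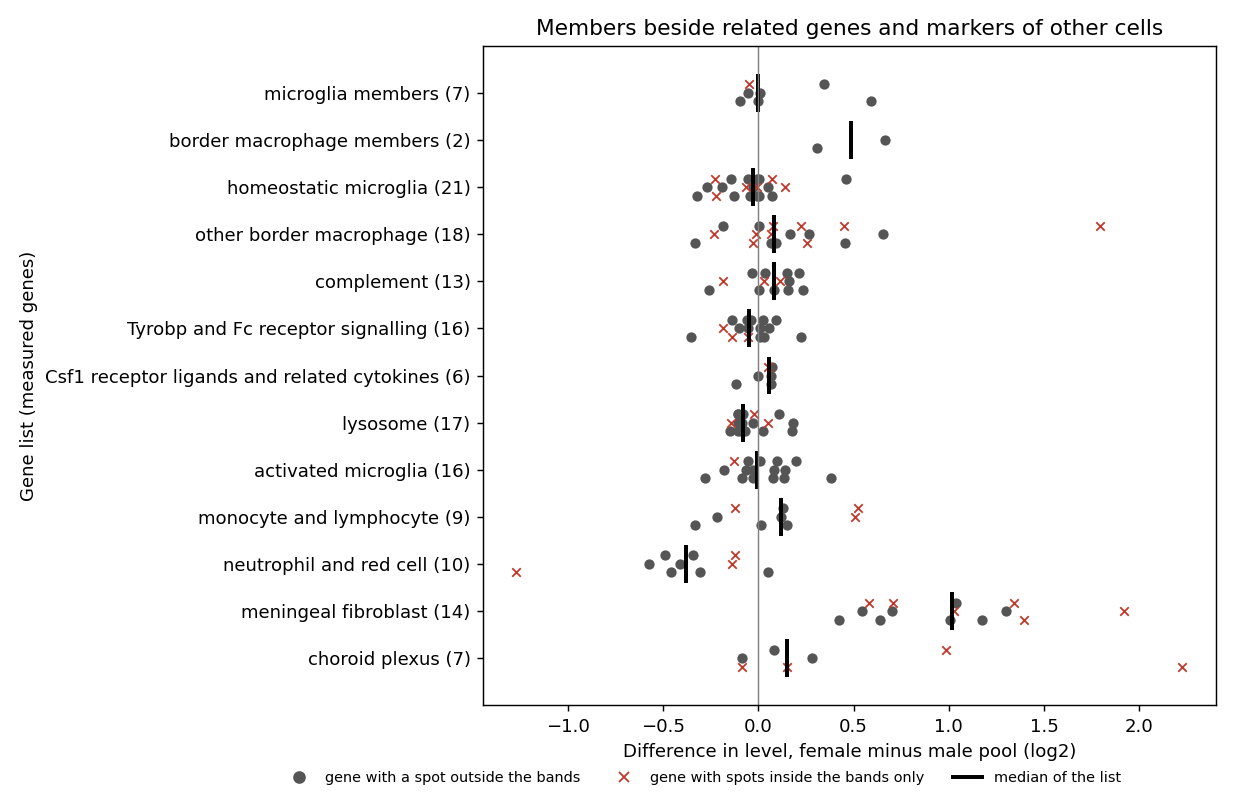
Difference in level, female minus male (log2), of every measured gene of the 2 member groups and of 11 context lists, with the number of measured genes in brackets; black bars are list medians and red crosses are genes whose spots all lie inside a band. The microglia lists centre on 0, border macrophage genes lie slightly to the right, neutrophil and red cell genes to the left and all 14 meningeal fibroblast genes to the right.

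Markers of other cells that a dissected block can hold were set beside the macrophage genes, and those of meningeal fibroblasts differed most among the lists. Of 14 meningeal fibroblast genes measured, 14 were higher in females and 11 passed 1.5-fold. Over all measured genes 50% were higher and 1.56% were up by 1.5-fold or more. The list was chosen with earlier results of these data known, so its counts are not independent of them. The median was 1.02 log2, or 0.85 over the 8 with a spot outside the bands. The retinoic acid enzyme gene Aldh1a2 was at 1.92 (band), the transporter genes Slc47a1 and Slc22a6 at 1.39 (band) and 1.34 (band), and the proteoglycan gene Ogn at 1.299. The median level of that list was -2.45 for males and -1.74 for females. Leptomeninges hold both fibroblasts and border macrophages, so these values stand beside Clec10a, Cd163 and the other border macrophage genes, and their part in those differences was not tested.

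Of 7 choroid plexus genes 5 were higher and 2 lower, with a median of 0.15 log2, or 0.081 over the 3 with a spot outside the bands. Kcnj13 and Ttr were at 2.22 (band) and 0.98 (band), Prlr at 0.28 ± 0.14 (SD, 9 spots) and Kl at 0.15 (band). The Kcnj13 spot had intensities of 30.6 and 112 and a technical SD of 0.21, and the Kl spot 29.3 and 25.4. Their male values are close to background, where male spots as bright as 23.9 had failed the flag. The part of choroid plexus in the border macrophage values was not tested.

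Some blood cells also carry Ptprc, Tyrobp or Clec10a. Of 17 monocyte and lymphocyte genes on the array, 9 were measured, 6 higher and 3 lower, with a median of 0.12 log2. That median was 0.066 over the 6 with a spot outside the bands. The list was dim, with median levels of -5.31 and -5.21. At levels from -6 to -5, 54.4% of all genes were higher. Nkg7 was at 0.52 (band), Plac8 at 0.51 (band) and Cd4, which rat macrophages also carry, at -0.22. Among the 8 not measured were the monocyte receptor gene Ccr2, the T cell genes Cd3e and Cd8a and the B cell gene Ms4a1. Of 10 neutrophil and red cell genes 1 was higher and 9 were lower in females. Their median was -0.38, or -0.41 over the 7 with a spot outside the bands, with S100a8 at -1.27 (band), Ahsp at -0.57, Alas2 at -0.49 and S100a9 at -0.46. The 2 blood lists thus lay on opposite sides, and the part of blood cells in the member differences was not tested.

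Cells of the brain tissue itself differed little between the pools. The median difference was 0.042 log2 for 7 neuron genes, -0.069 for 7 astrocyte genes, -0.058 for 7 oligodendrocyte genes and 0.015 for 9 genes of endothelium and mural cells, with none of these genes at 1.5-fold. The microglia genes, with a median of -0.0016, lay among them.

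The differences were also computed under 11 other settings, shown gene by gene in the plot of settings. Clec10a ran from 0.58 to 0.67 log2, Cd68 from 0.52 to 0.59, Cd163 from 0.24 to 0.31 and Ptprc from 0.021 to 0.34. Csf1r and Aif1 took both signs. A planned normexp background correction fitted on all spots gave -1.16 for Clec10a and -0.73 for Cd68, while moving the median of all genes to -0.55 log2 and putting 49% of them at least 1.5-fold apart. That fit was set by 8 male spots below their local background. Fitted without them and the 2 such female spots, normexp gave 0.58 for Clec10a and 0.54 for Cd68, under 1.5-fold for both. That last fit moved the median of all genes to 0.052 log2 and spike-in scaling moved it to -0.066. Shifts of that size exceed the medians of the homeostatic microglia, Tyrobp and Fc receptor, activated microglia and Csf1 ligand lists, so the signs of those medians are read only relative to all genes. The lysosomal, neutrophil and red cell, and meningeal fibroblast medians kept their sign in all 12 alternatives. With normexp on all spots, however, the lysosomal median was -0.013 and so lay above the median of all genes, -0.55. Those of the further border macrophage, complement, monocyte and lymphocyte, and choroid plexus genes kept it in all but normexp on all spots.

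**Figure D5:**
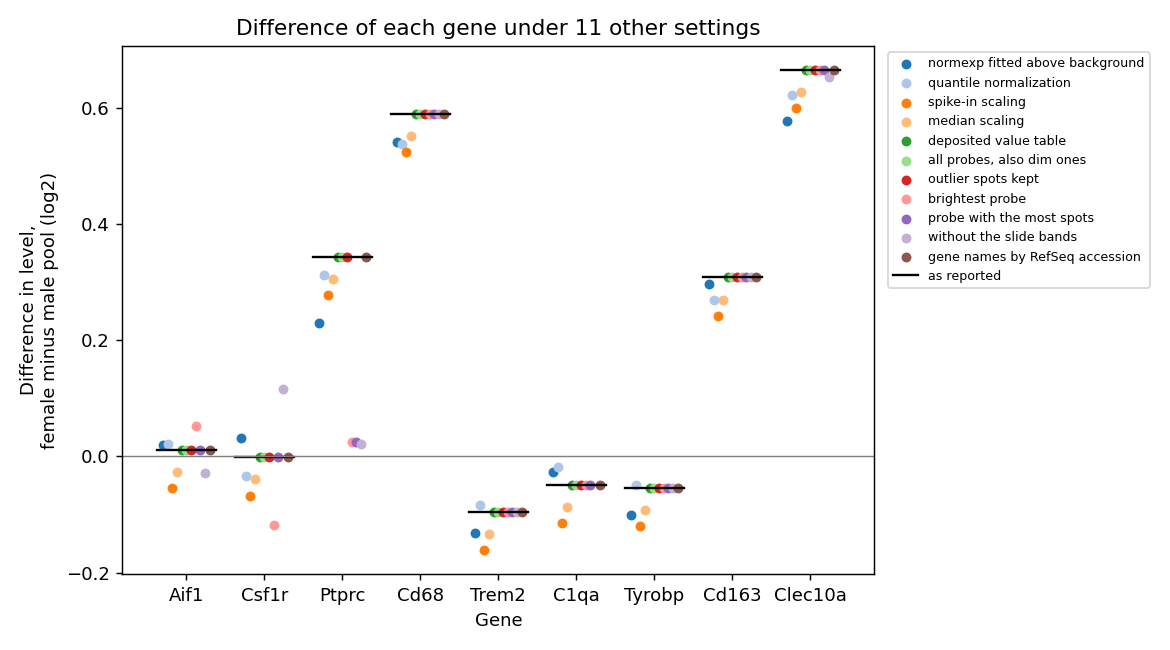
Difference in level, female minus male (log2), of the 9 measured genes as reported (black bars) and under 11 other settings (coloured points); normexp fitted on all spots is left out. Clec10a, Cd68 and Cd163 keep their direction at every setting shown, Ptprc is near 0 where 1 probe or the spots outside the bands are used, and Aif1 and Csf1r cross 0.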

How the data were processed

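Per the file headers, the authors' scanner files hold the processed intensity of each spot after background subtraction, made by Agilent Feature Extraction 10.7.3.1, with probe positions in build rn4. The submitters' processing notes name version 9.1, and this conflict was not resolved. In the deposited value table, the signal was 100 times the processed intensity over that array's 75th percentile, linear and not centred by gene. Medians there were 29.0 (male) and 29.5 (female), and 30 of the 31 member spots were in it.

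Control spots and flagged outlier spots (286 male, 292 female) were left out. Spots of a probe were averaged first, then measured probes of a gene. Bands are windows of 20 rows with over 2.5% of repeated spots departing, set after seeing the slide. Technical SDs came from 8 level bins. With 1 array per group no test was run and the number of arrays limits the precision.

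The members and lists were chosen with earlier results of these data known. Named are the 10 members and up to 4 genes with the largest difference from each of 17 context lists, or a gene in a list not measured; a few are not reported here. Naming by RefSeq accession matched 18758 of 30367 probes and gave the same 13 member probes. Python 3.11.15, pandas 2.3.3, numpy 2.4.6 and limma 3.58.1 were used, and the calculation was tested on simulated data. Alternatives were other background, scaling, probe, filter and naming choices.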

Additional observations from a re-analysis of the deposited data

How the results depend on the processing

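No paired analysis was possible because each sex was 1 pool on 1 array. Of 12 alternatives, normexp fitted on all spots changed most. It turned Cd68 (-0.73 log2), Clec10a (-1.16), Ptprc (-1.88) and Cd163 (-1.74) negative, and C1qa (0.13) and Tyrobp (0.049) positive. It left 3 genes higher in the female pool rather than 5 and put 4 at 1.5-fold rather than 2. The medians moved to -0.11 for the microglia genes and -1.45 for the border macrophage genes. The cause of these changes lay in spots below their local background, the lowest at a net intensity of -19745. The count at 1.5-fold was 1 with quantile, spike-in or median scaling, and 0 with normexp fitted above background, an alternative chosen after seeing the data. The microglia median was -0.068 with spike-in scaling, -0.040 with median scaling and -0.049 with the brightest probe. The border median was 0.42 to 0.55 in the other 11 alternatives, the upper end including Mrc1. Signal over background limits Mrc1, Cd163 and Ptprc 2, and 1 spot each limits Cd68 and Cd163.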
